A study of Mus musculus with 2 samples.

Results

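Serpina3f, Serpina3g, Serpinb9, Serpinb9b, Serpinb6a, Serpinb6b, Serpinb1a and Serpine2 are 8 serpin genes of the mouse, taken by symbol from the 32285 genes counted, among which 54 others have a serpin symbol. The members were chosen by KO over WT ratios and cluster levels of these same cells: Serpina3f, Serpina3g and Serpinb9b had been higher in KO CD8 T cells, and Serpine2 had led a CD8 cluster. Ratios between the genotypes and levels across gates and cell states therefore describe the genes and test nothing. The cells were living leukocytes, sorted as CD45+ and negative for the dye DAPI, from B16-F0 tumours, a transplantable melanoma line. There was 1 KO library and 1 WT library, and the knocked-out gene, strain, age and any treatment are not given in the labels. The knockout could not be checked in the counts, since the labels name no target gene. The labels call the cell type tumour-infiltrating Treg, while the stated sort takes all CD45+ cells, and B, NK, myeloid and T cells were all found.

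Serpins are protease inhibitors that offer a protease a bait loop, are cut there and trap the enzyme in a covalent complex. Members of clade B stay inside the cell. In lymphocytes that store granzymes and perforin, the family is known for guarding the cell against its own leaked proteases. Serpinb9 is the intracellular inhibitor of granzyme B, and Serpinb9b is its close relative. Serpinb6b is known in the mouse as an inhibitor of granzyme A. Serpinb6a and Serpinb1a act on the serine proteases of neutrophils, cathepsin G for Serpinb6a and also elastase and proteinase 3 for Serpinb1a. Serpina3g, also called Spi2A, blocks lysosomal cysteine cathepsins in the cytosol and is known for its role in the survival of CD8 T cells. Serpina3f belongs to the same expanded mouse family. Serpine2, protease nexin 1, is secreted and inhibits thrombin, urokinase and plasmin.

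The genes lie in 3 places. Serpina3f and Serpina3g are neighbours on chromosome 12, within 27.4 kb in GRCm38. The clade B genes lie on chromosome 13 within 1161 kb, and Serpine2 lies on chromosome 1 at 79794197 to 79861180. Promoters are shown for both neighbouring pairs, because the ratios of each pair are set side by side in the results. The windows run from 250 bases before to 50 after the RefSeq start in GRCm38.p6, 5′ to 3′ on the plus strand, and lie at chr12:104214294-104214593, chr12:104235897-104236196, chr13:33004291-33004590 and chr13:33027164-33027463. Capitals mark the gamma-activated site letters TTCNNNGAA or the interferon-stimulated response core, which is GAAA, any 2 bases and GAAA again. Both strands were searched, and the core reads TTTC, 2 bases and TTTC on the other one.
Serpina3f: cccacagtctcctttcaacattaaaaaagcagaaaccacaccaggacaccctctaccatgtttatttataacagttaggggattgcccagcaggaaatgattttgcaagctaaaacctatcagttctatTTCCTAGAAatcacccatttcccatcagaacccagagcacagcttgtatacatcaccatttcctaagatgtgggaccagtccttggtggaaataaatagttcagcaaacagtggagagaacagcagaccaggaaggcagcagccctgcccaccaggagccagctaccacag
Serpina3g: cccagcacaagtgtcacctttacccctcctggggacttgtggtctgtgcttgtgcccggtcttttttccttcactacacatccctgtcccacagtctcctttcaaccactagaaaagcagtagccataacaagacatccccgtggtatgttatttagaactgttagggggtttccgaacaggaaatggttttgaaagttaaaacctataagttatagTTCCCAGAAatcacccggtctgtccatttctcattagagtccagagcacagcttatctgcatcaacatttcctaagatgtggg
Serpinb9: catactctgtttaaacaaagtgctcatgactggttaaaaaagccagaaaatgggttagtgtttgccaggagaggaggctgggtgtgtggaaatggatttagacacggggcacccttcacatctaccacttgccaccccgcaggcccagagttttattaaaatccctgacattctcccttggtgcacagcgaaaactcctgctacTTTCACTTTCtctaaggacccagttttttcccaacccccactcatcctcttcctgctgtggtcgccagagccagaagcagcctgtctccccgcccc
Serpinb9b: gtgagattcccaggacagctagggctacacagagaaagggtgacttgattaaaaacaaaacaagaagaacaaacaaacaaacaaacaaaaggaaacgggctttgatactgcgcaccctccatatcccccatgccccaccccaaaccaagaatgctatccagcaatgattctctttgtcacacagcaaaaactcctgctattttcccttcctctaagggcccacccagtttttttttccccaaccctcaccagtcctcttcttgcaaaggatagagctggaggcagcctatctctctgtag
The TTCNNNGAA letters stood at -121 from the start of Serpina3f and at -33 from that of Serpina3g, and 8.3% of all 32851 promoters of this length held them. Serpina3f has another RefSeq start, not shown, from which the letters stood at -210. Without gaps, the best overlay of the Serpina3f and Serpina3g windows had 119 identical letters among 212 bases (56.1%). The response core stood at -46 in Serpinb9, was not among the letters of the Serpinb9b window, and was held by 3.44% of all promoters. The first of the Serpinb6a windows held both motifs. TTCNNNGAA stood there at -77 and again at 20, and the core, which overlaps the match at -77, at -84. The Serpinb6b and Serpine2 windows held neither.

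UMIs, the tags that count single RNA molecules, numbered 112544655 in the KO and 98438084 in the WT library. After filters on genes, UMIs and mitochondrial share, 11131 KO and 11153 WT cells remained, with medians of 6360 and 5191 UMIs, and the libraries shared 42 barcodes before the filters. Cells were assigned to gates by marker UMIs, such as Cd3d, Cd3e and Cd3g for T cells. The gates held 2400 KO and 1597 WT CD8 T cells, 2105 and 1186 NK cells, 427 and 3515 B cells, 141 and 109 type 1 conventional dendritic cells (cDC1), 199 and 117 cDC2, and 88 and 184 plasmacytoid dendritic cells (pDC). The Treg-like gate (CD4 T cells with both Ikzf2 and Il2ra) held 189 KO and 86 WT cells. Other CD4 T cells, which could hold either marker but not both, numbered 1029 and 597. The gate of T cells with neither Cd4 nor Cd8 held 1508 and 1064. Foxp3 was at 28.2 CPM in KO and 113 CPM in WT Treg-like cells, where CPM is UMIs of a gene per 1000000 UMIs of the gate. Other CD4 T cells had Foxp3 too, at 9.99 CPM in KO and 34.2 CPM in WT. The part of cells with Foxp3 in the ratios of that gate was not tested. Brackets hold 95% intervals for counting error alone, and with 1 library per genotype there is no replicate check and no p-value.

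The levels across gates set the serpins apart (see the plot of levels by gate). Serpinb9 was highest in NK cells among the gates with at least 50 cells, at 339.7 CPM in KO and 227 CPM in WT cells. CD8 T cells had 109 CPM in KO and 54.0 CPM in WT, within the intervals of T cells with neither coreceptor, at 103 and 57.2 CPM. B cells had 5.27 CPM in KO and 2.98 CPM in WT. The granzyme B inhibitor was thus far above the B cell level in every T and NK gate of both libraries.

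Serpinb6b was also highest in NK cells among the gates compared, with 403 CPM in KO and 359 CPM in WT. CD8 T cells had 157 CPM in KO and 111 CPM in WT, and B cells 3.83 and 2.75 CPM. Over the 10 gates and both libraries, 20 points, log2(CPM + 1) of Serpinb9 and Serpinb6b correlated at a Pearson r of 0.96. The points share their library and the depth of the gate, so this r is a description.

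Serpinb9b was narrower. Its level was 53.2 CPM in KO and 39.9 CPM in WT NK cells, 32.0 and 12.6 CPM in CD8 T cells, and 11.3 and 7.30 CPM in T cells with neither coreceptor. In B cells it was found in 1 of 427 KO and 1 of 3515 WT cells. Each of those steps, from NK to CD8 T and on to T cells with neither coreceptor, was larger than the counting intervals in both libraries.

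Both Serpina3 genes were also present in B cells. Serpina3g was at 233 CPM in KO and 185 CPM in WT NK cells, at 163 and 125.7 CPM in Treg-like cells, and at 81.5 and 40.8 CPM in B cells. The lowest Serpina3g level among the gates compared was in pDC, at 4.04 CPM in KO and 4.48 CPM in WT. Serpina3f by CPM was highest in B cells in the KO library, at 71.4 CPM against 3.69 CPM in WT B cells, and in Treg-like cells in the WT library, at 43.0 CPM in KO and 38.2 CPM in WT. The KO B cell level rests on few cells, since 3 of 427 held 49.0% of its UMIs. By share of cells with a UMI at full depth, KO B cells (9.13%) were below KO Treg-like cells (23.3%) and CD8 T cells (16.0%). Those gates differ in depth, with medians of 3458, 10614 and 7245 UMIs. Thinned to 1500 UMIs, the KO shares of B cells (3.76%), NK cells (4.01%) and Treg-like cells (6.35%) had overlapping intervals. At that depth KO CD8 T cells had 2.54%, below the B cell share, with intervals that overlap. No Serpina3f UMI was found in 88 KO or 184 WT pDC.

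Serpinb6a was highest in Treg-like cells among the gates compared, at 71.9 CPM in KO and 70.1 CPM in WT, and CD8 T cells had 63.8 and 55.9 CPM. The intervals of these 2 gates overlapped in both libraries. Monocytes and macrophages had 41.6 CPM in KO and 68.9 CPM in WT. Their WT interval overlapped that of Treg-like cells and lay above that of CD8 T cells. Serpinb1a had a different order of gates. B cells held 154 CPM in KO and 206 CPM in WT, cDC2 30.3 and 48.4 CPM, and NK cells only 4.40 and 8.57 CPM. Its r with each of the other 7 serpins was below 0, from -0.62 with Serpinb9 to -0.05 with Serpina3f. Its highest level among the gates compared was thus in B cells.

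Serpine2 was almost confined to CD8 T cells among the gates compared, at 30.0 CPM in KO and 14.1 CPM in WT. It had led a CD8 cluster of these same cells when the genes were chosen, so its place in CD8 T cells is a description. NK cells had 2.38 CPM in KO and 2.71 CPM in WT, and no dendritic cell gate of either library held a UMI. After each cell was thinned to 1500 UMIs, Serpine2 was found in 1.71% [1.23, 2.31] of KO and 0.753% [0.390, 1.31] of WT CD8 T cells. B cells, where little is expected, gave thinned shares of 0.235% in KO and 0.0571% in WT. Before thinning the median was 7245 UMIs in KO and 7243 in WT CD8 T cells, and 3458 and 3332 in B cells.

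**Figure D1:**
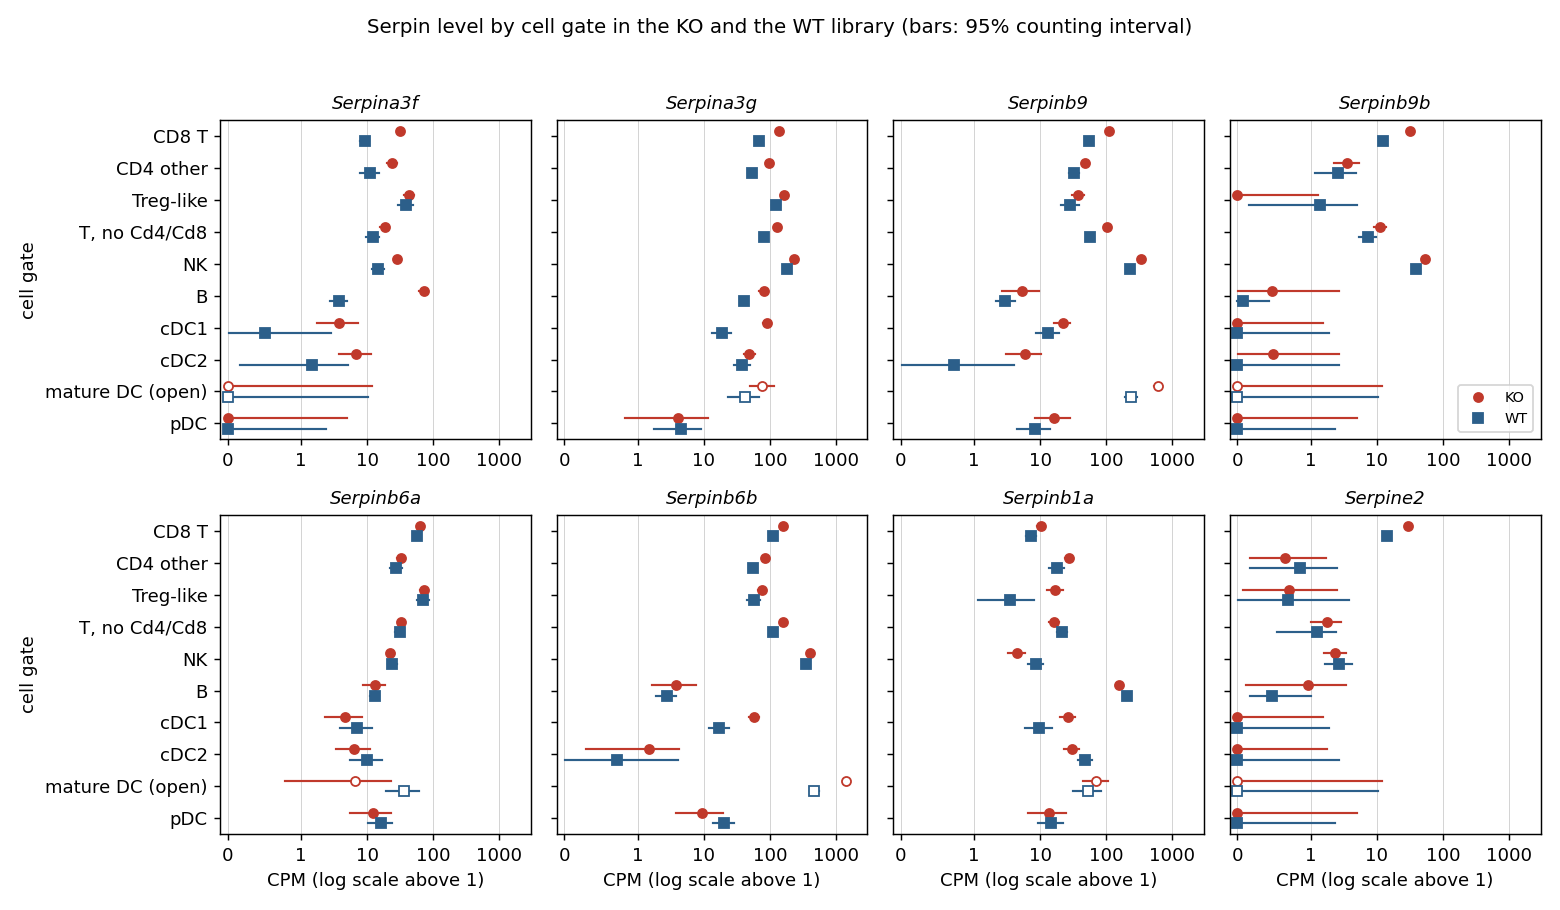
Level of each serpin (CPM, log scale above 1) in 10 cell gates of the KO library (red circles) and the WT library (blue squares), with 95% counting intervals; open symbols mark mature dendritic cells, with under 50 cells. Serpinb9 and Serpinb6b lie highest in mature dendritic and NK cells, Serpinb1a in B cells and Serpine2 in CD8 T cells.

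Mature dendritic cells (Fscn1 and Ccr7) were too few to compare, at 32 KO and 25 WT cells, but held the highest levels of the Serpinb6b and Serpinb9 genes. Serpinb6b was at 1399 CPM in KO and 473 CPM in WT cells, and Serpinb9 at 606 and 239 CPM. The intervals of KO and WT were apart for both genes. Melanoma markers were at 3.22 CPM in KO and 3860 CPM in WT cells of that gate, and their part in the lower WT values was not tested. These levels go against a name limited to lymphocytes.

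The first comparison between genotypes was in CD8 T cells, the killer cells that store granzymes. A gene counted as higher or lower at 1.5-fold or more with an interval that excludes 1 and at least 20 UMIs over both libraries, a rule of size. All 8 serpins were measured, 5 were higher in KO cells and none lower, with a median log2 ratio of 1.01 against 0.07 over the 12450 genes measured. Of all those genes 6.3% were higher and 5.24% lower, and since the choice of genes used this contrast, nothing is read from the difference.

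Serpina3f had 882 UMIs in 385 KO cells, 31.2 CPM, against 141 UMIs in 91 WT cells, 9.20 CPM. Its log2 ratio was 1.76 [1.51, 2.03]. Serpinb9b had 905 UMIs in 75 KO cells and 193 UMIs in 22 WT cells, with a log2 ratio of 1.35 [1.12, 1.58]. Serpina3g, at 139.7 CPM in KO and 69.4 CPM in WT, and Serpinb9, at 109 and 54.0 CPM, each had a log2 ratio of 1.01, and Serpine2 one of 1.09 [0.87, 1.31]. At 1500 UMIs per cell, Serpina3f was in 2.54% [1.95, 3.25] of KO and 0.878% [0.481, 1.47] of WT CD8 T cells. The thinned shares of Serpina3g and Serpinb9 also had intervals apart. Those of Serpinb9b, 0.959% [0.609, 1.44] in KO and 0.627% [0.301, 1.15] in WT, overlapped, as did those of Serpine2 given above.

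Serpinb6b, at 157 CPM in KO and 111 CPM in WT, and Serpinb1a, at 10.1 and 7.31 CPM, stayed below 1.5-fold, with log2 ratios of 0.49 and 0.47. Serpinb6a had the smallest difference, 63.8 CPM in KO and 55.9 CPM in WT, a log2 ratio of 0.19 [0.07, 0.31]. RNA of other cells also differed in the gate, with 4 B cell markers summing to 49.7 CPM in KO and 127 CPM in WT and 4 neutrophil markers to 10.3 and 57.1 CPM, none of them at 0. Their part in the ratios was not tested. Serpina3g shares 21.4% of its 50-base windows near the transcript end with other genes, first Serpina3h, so its counts may hold reads lost or gained to copies.

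**Figure D2:**
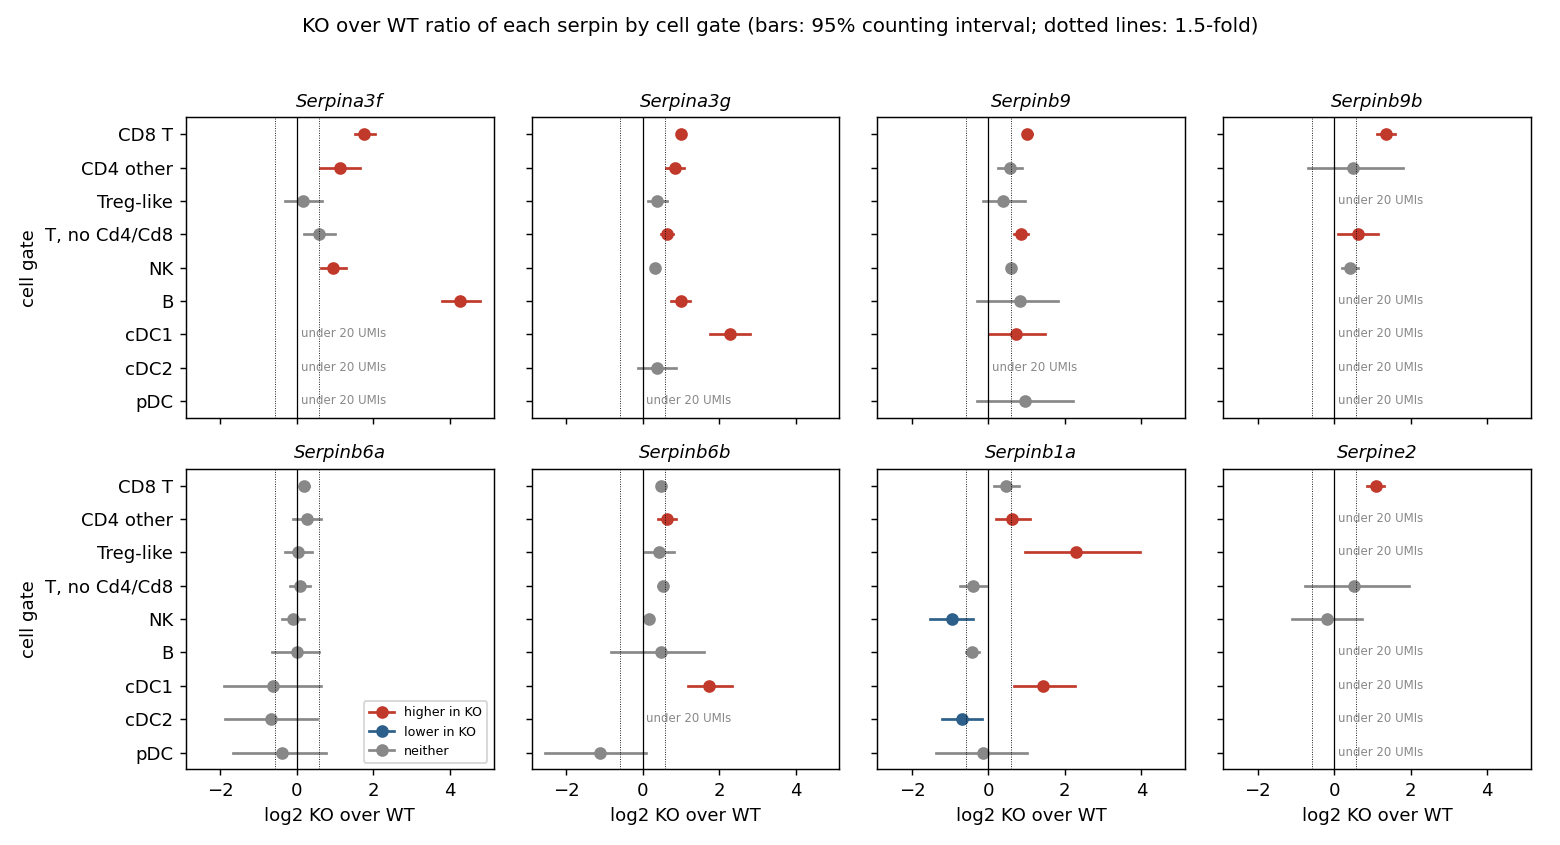
Log2 ratio of KO over WT for each serpin in 9 cell gates, with 95% counting intervals; red marks higher in KO and blue lower by the rule of size, grey neither, and dotted lines 1.5-fold. Serpina3f in B cells, at 4.27, lies farthest from 0, Serpinb6a stays between the dotted lines or has an interval across 0, and Serpinb1a has points on both sides.

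CD8 T cells were then split in order into cycling cells (Mki67 and Top2a), cells with Havcr2, the checkpoint receptor Tim-3 of exhausted cells, cells with Gzmk, naive-like cells and the rest. All 8 serpins in both libraries were higher by CPM in Havcr2 than in naive-like cells with intervals apart. How many of all genes differ between these states in the same way was not counted, so nothing about serpins as a family is read from it. The intervals of the thinned shares overlapped for Serpina3f and Serpinb1a in both libraries and for Serpinb9 in WT, and were apart otherwise. Serpinb1a in KO Havcr2 cells came from 7 cells. Serpine2 was at 81.0 CPM in KO and 49.7 CPM in WT Havcr2 cells, at 43.4 and 29.7 CPM in cycling cells, and at 1.46 and 0.185 CPM in naive-like cells. Serpinb9b was at 99.8 CPM in KO and 63.8 CPM in WT Havcr2 cells, at 43.9 and 21.7 CPM in cycling cells, and at 2.67 and 1.11 CPM in naive-like cells. These 2 genes were at 3.44 CPM or less in the Gzmk, naive-like and remaining cells of both libraries. The lowest level of any of the other 6 in a state was 2.78 CPM, that of Serpina3f in WT naive-like cells.

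Few cells carried them. Of the 75 KO and 22 WT CD8 T cells with Serpinb9b, 64 and 17 were cycling or had Havcr2. The 23 KO and 5 WT cells with at least 10 of its UMIs held 81.7% and 77.2% of all its UMIs in the gate. For Serpine2 the cells in those states were 177 of 188 in KO and 46 of 52 in WT. Cycling cells are deep, with medians of 21421 UMIs in KO and 18169.5 in WT, and the thinned shares separated the states for Serpine2, at 4.82% of KO and 2.70% of WT cycling cells, against 0.197% and 0.155% of naive-like cells. For Serpinb9b they did not separate cycling from naive-like cells. Its thinned shares were 2.24% [1.2, 3.8] of KO and 2.25% [0.735, 5.18] of WT cycling cells. Naive-like cells had 0.394% [0.0477, 1.41] and 0.155% [0.00391, 0.858], with intervals that overlap. Havcr2 cells had 4.62% [2.02, 8.91] in KO and 4.04% [1.11, 10.0] in WT, with intervals apart from those of naive-like cells.

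**Figure D3:**
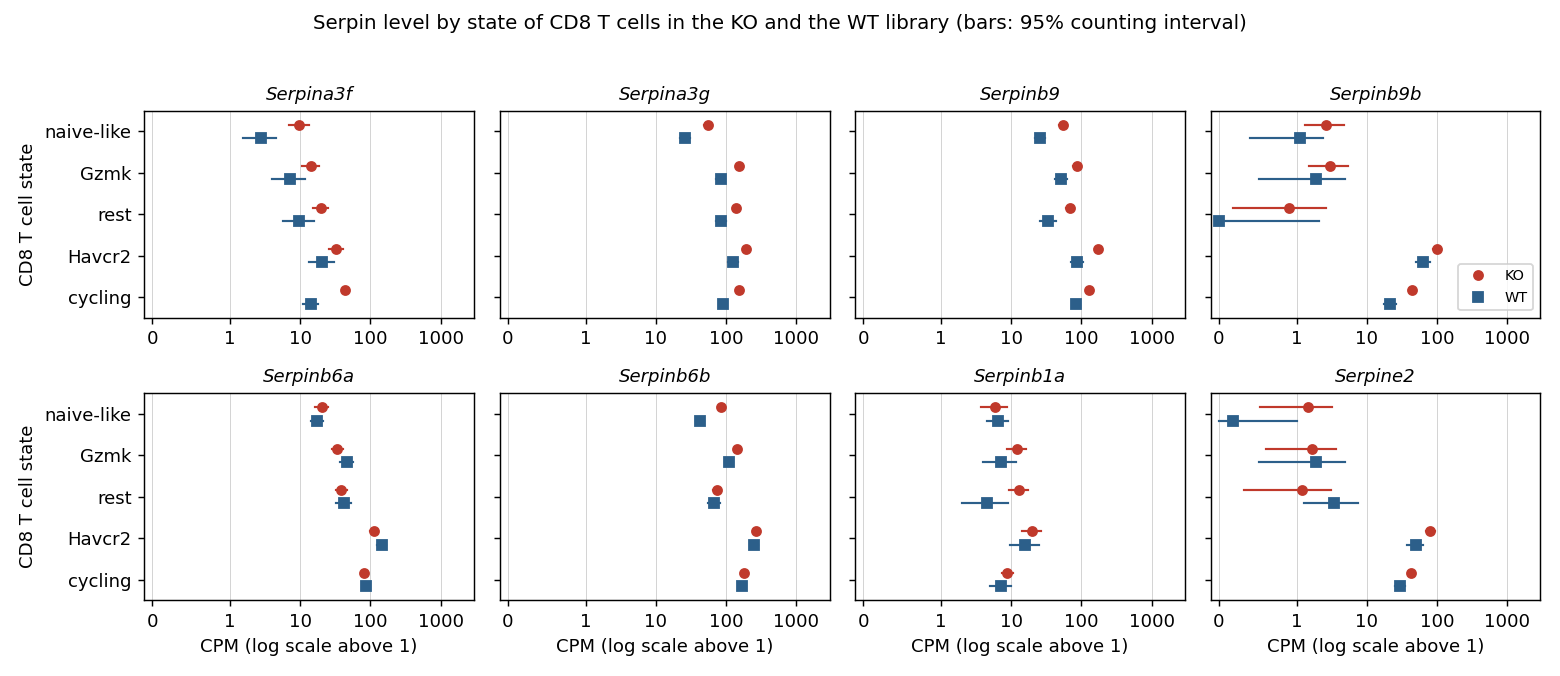
Level of each serpin (CPM, log scale above 1) in 5 states of CD8 T cells in the KO library (red circles) and the WT library (blue squares), with 95% counting intervals. Serpinb9b and Serpine2 are at 3.44 CPM or less in 3 states and reach 21.7 CPM or more in the Havcr2 and cycling cells.

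The states differed in size between the libraries: naive-like cells were 21.2% of KO and 40.5% of WT CD8 T cells, and cycling cells gave 53.0% and 31.9% of the gate's UMIs. With the KO state levels weighted by the WT mix of states, the log2 ratio was 1.39 for Serpina3f, 0.89 for Serpinb9b, 0.79 for Serpina3g and for Serpinb9, and 0.58 for Serpine2, which is below 1.5-fold. Within the states, Serpina3f was at 43.6 CPM in KO and 14.1 CPM in WT cycling cells and at 9.70 and 2.78 CPM in naive-like cells, log2 ratios of 1.62 and 1.80. In Gzmk and the remaining cells its log2 ratios were 1.00 and 1.02. In Havcr2 cells it was at 32.7 CPM in KO and 20.7 CPM in WT, a log2 ratio of 0.66 [-0.02, 1.37], with an interval across 0.

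Serpina3g and Serpinb9 were higher in all 5 states. Their log2 ratios ran from 0.62 to 1.09 and from 0.61 to 1.05. In cycling cells 4 of 8 serpins were higher, and in Havcr2 cells 4 of 8, at backgrounds of 2.23% higher and 5.34% lower and of 2.6% and 3.2%. In Gzmk cells 3 of 6 were higher, at 3.24% and 2.41%, in naive-like cells 4 of 6, at 4.05% and 1.23%, and in the remaining cells 4 of 6, at 3.27% and 1.92%. No serpin was lower in any of the 5 states by the rule of size. Serpinb6b was 1.5-fold or more apart only in naive-like cells among these states, at 86.1 CPM in KO and 43.1 CPM in WT. The Serpinb6a gene had log2 ratios from -0.43 to 0.21 over the states, all short of 1.5-fold.

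In other T cells the ratios differed by gene. In CD4 T cells outside the Treg-like gate, 4 of 7 measured serpins were higher and none lower, at a background of 3.97% higher and 3.24% lower genes. Serpina3f was at 24.1 CPM in KO and 11.1 CPM in WT, Serpina3g at 96.8 and 54.1 CPM, Serpinb6b at 86.0 and 55.5 CPM and Serpinb1a at 27.3 and 17.7 CPM. In T cells with neither coreceptor, Serpinb9, Serpina3g and Serpinb9b were higher, 3 of 8 measured, and none lower, at a background of 3.13% and 1.85%, and Serpinb9 was at 103 CPM in KO and 57.2 CPM in WT.

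Treg-like cells were close between the libraries for the Serpina3 genes. Serpina3f was at 43.0 CPM in KO and 38.2 CPM in WT, a log2 ratio of 0.17 [-0.30, 0.66], and Serpina3g at 163 and 125.7 CPM, 0.38 [0.13, 0.63]. Serpinb1a, with 48 UMIs in KO and 5 in WT, was the 1 gene of 6 measured that was higher, and none was lower, at a background of 2.57% and 3.81%. Its UMIs were in 16 of 189 KO cells (8.47% [4.92, 13.4]) and 4 of 86 WT cells (4.65% [1.28, 11.5]), with intervals that overlap. Whether ratios differ between CD8 and Treg-like cells was not tested, and the Treg-like intervals are wide.

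NK cells are the innate killers. Of 8 serpins measured, Serpina3f was higher, at 28.1 CPM in KO and 14.6 CPM in WT, and Serpinb1a lower, at 4.40 and 8.57 CPM, at a background of 2.25% higher and 1.85% lower genes. B cell markers summed to 77.9 CPM in KO and 153 CPM in WT NK cells, and their part was not tested. Serpinb9 lay just inside the limit with a log2 ratio of 0.58 [0.50, 0.67]. Serpinb6b, at 403 CPM in KO and 359 CPM in WT, had one of 0.16 [0.09, 0.24], and Serpinb9b one of 0.42 [0.21, 0.63]. The Serpinb1a value rests on few cells: 1 WT cell held 43.3% of its WT UMIs, and without the top cell of each library the log2 ratio was -0.39.

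B cells gave the largest ratio among all members and gates measured. Serpina3f had 149 UMIs in 39 of 427 KO cells, 71.4 CPM, and 47 UMIs in 35 of 3515 WT cells, 3.69 CPM, a log2 ratio of 4.27 [3.79, 4.78]. At 1500 UMIs per cell the shares were 3.76% [2.16, 6.03] of KO and 0.457% [0.261, 0.741] of WT cells, and 0 of 88 KO and 184 WT pDC, where 3 counts of the total would be 3.41% and 1.63%, at median depths of 8637 and 8527.5 UMIs. In the KO library 3 cells held 49.0% of the UMIs and 1 of them 28.2%, and without the top cell of each library the log2 ratio was 3.90. With equal weight for each cell it was 3.39.

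Cells with and without Cd83, a marker of activated B cells, had Serpina3f at 71.7 and 71.3 CPM in KO and 2.15 and 4.12 CPM in WT. Serpina3g was at 81.5 CPM in KO and 40.8 CPM in WT B cells, a log2 ratio of 1.00, and at 134.8 and 36.9 CPM in those with Cd83. These were the 2 genes higher of 6 measured, and none was lower, at a background of 5.44% higher and 8.5% lower, with a median log2 ratio of -0.18 over all genes. The same 2 were the ones higher of 5 measured in cells with Cd83, at 3.8% and 4.2%, and of 6 in cells without, at 5.58% and 10.4%. Serpinb1a, at 154 CPM in KO and 206 CPM in WT, had a log2 ratio of -0.42, or -0.24 with size factors that take that shift out. T cell markers summed to 44.6 CPM in KO and 27.2 CPM in WT B cells, and NK markers to 30.2 and 18.7 CPM, and their part in the ratios was not tested.

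In cDC1, the dendritic cells that present antigen to CD8 T cells, 4 of 5 measured serpins were higher and none lower, at a background of 4.82% higher and 1.78% lower genes. Serpina3g had 217 UMIs in KO and 37 in WT cells, 91.0 and 18.7 CPM, a log2 ratio of 2.28 [1.77, 2.82]. Serpinb6b was at 57.4 CPM in KO and 17.2 CPM in WT, Serpinb1a at 26.0 and 9.61 CPM and Serpinb9 at 21.8 and 13.2 CPM. The Serpinb9 log2 ratio was 0.73 [0.02, 1.47]. Shares of cells with a UMI were 35.5% in KO and 12.8% in WT for Serpina3g, with intervals apart. Full-depth shares were 16.3% and 12.8% for Serpinb6b, 14.2% and 14.7% for Serpinb1a, and 9.22% and 9.17% for Serpinb9, with intervals that overlap. Single cells weigh here: 1 KO cell held 40.1% of the Serpinb6b and another 56.5% of the Serpinb1a UMIs, and without the top cell of each library the Serpinb1a log2 ratio was 0.40, against 1.43. For Serpinb9, 1 KO cell held 30.8% of the KO UMIs and 1 WT cell a larger share of the WT UMIs.

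The other dendritic cells had fewer serpins to measure. In cDC2 1 of 3 measured serpins, Serpinb1a, was lower, at 30.3 CPM in KO and 48.4 CPM in WT, and none higher, at a background of 5.06% higher and 2.62% lower. Melanoma markers were at 74.7 CPM in KO and 2.17 CPM in WT cDC2, and their part was not tested. In pDC none of 4 measured was higher or lower, at 3.12% and 2.01%. Monocytes and macrophages, gated for comparison, had 4 of 7 higher (Serpina3f, Serpina3g, Serpinb9 and Serpinb6b) and Serpinb6a lower, at 41.6 CPM in KO and 68.9 CPM in WT, at a background of 2.64% and 4.28%. Over the 9 lymphocyte and dendritic cell gates 20 of 55 pairs of serpin and gate were higher and 2 lower, where 4.12% of all gene and gate pairs measured were higher and 3.55% lower, and Serpinb6a was neither in any of its 9.

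Granzyme B (Gzmb), the protease that Serpinb9 inhibits, splits killer cells within each library and so bears on the serpins apart from genotype. Cells were thinned to 1500 UMIs and the share with each serpin compared between cells with and without a Gzmb UMI. Serpinb9 was more frequent with Gzmb in both gates of both libraries. In CD8 T cells it was in 16.7% [14.0, 19.7] with and 8.33% [7.06, 9.75] without Gzmb in KO, and in 14.7% [10.9, 19.1] with and 3.96% [2.96, 5.18] without in WT. In NK cells it was in 43.0% with and 33.7% without in KO, and in 33.6% and 23.7% in WT. In B cells at the same depth it was in 0.469% of KO and 0.371% of WT cells.

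Serpinb9b was rarer in CD8 T cells, at 2.73% with and 0.235% without Gzmb in KO and 2.28% and 0.233% in WT. Serpinb6b was in 20.1% with and 9.51% without in KO CD8 T cells and in 17.6% and 8.08% in WT. Serpinb1a ran the other way in KO CD8 T cells, at 0.144% and 1.64%. Of 32 sets of serpin, gate and library, 14 had a higher share with Gzmb and 2 a lower one with intervals apart. The same count over all genes was not made, so this one is not read as a trait of the serpins. Before thinning, CD8 T cells with Gzmb had medians of 8865 UMIs in KO and 6769 in WT, and those without 7026.5 and 7325.

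**Figure D4:**
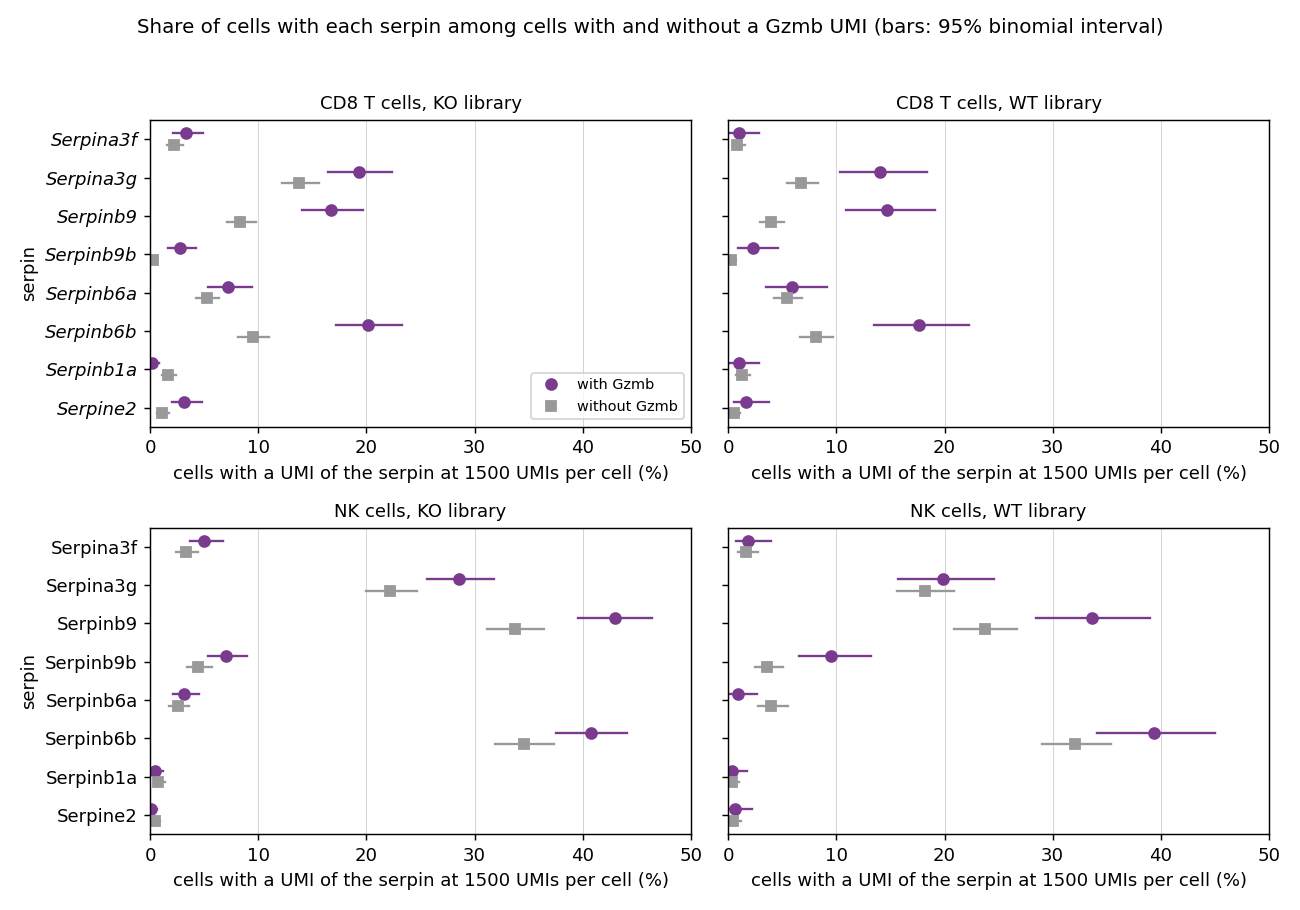
Share of cells (%) with a UMI of each serpin among cells with Gzmb (purple circles) and without (grey squares) at 1500 UMIs per cell, in CD8 T and NK cells of the KO and WT libraries, with 95% binomial intervals. Serpinb9 and Serpinb6b reach 43.0% and 40.8% in KO NK cells with Gzmb, and Serpinb9 is higher with Gzmb in all 4 panels.

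The proteases that these serpins meet were listed as well. Of 10 granzyme and perforin genes measured in CD8 T cells, 7 were higher and 1 lower, with a median log2 ratio of 0.75 against 0.07 over all genes, of which 6.3% were higher and 5.24% lower. Prf1, the pore former, was at 289 CPM in KO and 147 CPM in WT, Gzmf at 110.4 and 37.1 CPM and Gzmd at 41.5 and 21.1 CPM. The states differed in direction: Gzmd was at 20.2 CPM in KO and 40.6 CPM in WT cycling cells, and at 387 and 101 CPM in Havcr2 cells. In cycling cells 2 of 9 granzyme and perforin genes were higher and 3 lower, with Gzma at 141.5 CPM in KO and 355 CPM in WT. In NK cells 4 of 8 were higher (2.25% of all genes), with Gzmb at 717 CPM in KO and 364 CPM in WT. Treg-like cells had 2 of 4 lower and none higher (3.81% and 2.57% of all genes), with Gzmb at 219.6 CPM in KO and 336 CPM in WT.

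Cathepsins and legumain, the lysosomal proteases, had 1 of 97 gene and gate pairs higher and 20 lower over the 9 gates, beside 4.12% higher and 3.55% lower among all gene and gate pairs. Cathepsin E (Ctse) was lower in each of the 9, with log2 ratios from -1.77 to -1.07, and was at 13.4 CPM in KO and 45.6 CPM in WT CD8 T cells. Of the urokinase, plasminogen and thrombin system, on which Serpine2 acts, 4 of 25 pairs were higher and 2 lower, beside those same shares over all pairs. F2rl1, which encodes a protease-activated receptor, was at 5.67 CPM in KO and 14.8 CPM in WT CD8 T cells. The neutrophil serine proteases had under 20 UMIs in every gate compared.

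Beside the same shares over all pairs, death effectors had 15 of 65 pairs higher and 2 lower, among them Fas, the death receptor, at 15.3 CPM in KO and 3.93 CPM in WT B cells. Genes of the interferon gamma response had 53 of 174 pairs higher and 4 lower. Of 20 measured, 13 were higher in B cells, where 5.44% of all genes were, with Iigp1 at 12.5 CPM in KO and 1.10 CPM in WT and Gbp6 at 18.2 and 2.04 CPM. In cDC1 9 of 18 were higher (4.82% of all genes), and in CD8 T cells 2 of 20 higher and 2 lower (6.3% and 5.24%). In cDC2 13 of 19 were higher (5.06% of all genes), with Serpina3g there at 49.3 CPM in KO and 38.3 CPM in WT, a log2 ratio of 0.37. Serpina3f had its largest log2 ratio among the gates measured in B cells and Serpina3g in cDC1.

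Among the 54 other serpin genes, 31 had no UMI in the cells of either library and 12 had at least 20. In CD8 T cells 5 were measured, of which Serpina12 and Serpinf1 were higher and Serpini1 lower, each at 5.09 CPM or less in both libraries. Over the gates 3 of 19 pairs were higher and 1 lower, beside 4.12% and 3.55% of all pairs.

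Genes outside the family whose levels most resembled each serpin were taken by Pearson r of log2(CPM + 1) over the 20 gate and library points, among 11366 genes with at least 200 UMIs. For Serpinb9b these were Eomes (0.978), a transcription factor of killer cells, Gipc2 (0.963) and Prf1 (0.959), and for Serpinb9 Xcl1 (0.920), a chemokine of NK and CD8 T cells, Dapk2 and Reck (0.918 each). Serpina3g was nearest to Pdcd1lg2 (0.942), which encodes the PD-1 ligand PD-L2, Plekha8 (0.923) and Pbx3 (0.885). Serpina3f had Plekha8 (0.880) and Pdcd1lg2 (0.853) too, with Atxn1 (0.840). Among the genes nearest to Serpinb6b were Plaat3 (0.934) and Ptpn18 (0.922). Serpinb6a was nearest to Ddx1 (0.903), Pabpc1l (0.892) and Dgkz (0.889).

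For Serpinb1a the nearest were Pou2f2 (0.861), a B cell transcription factor, H2-Eb2 (0.858) and Fcrl1 (0.843), and for Serpine2 the granzyme gene Gzmf (0.869), Slc17a6 (0.848) and Exph5 (0.844). The points share libraries and gate depths and include both genotypes. The likeness was picked as the highest among many genes and carries no test.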

How the data were processed

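The authors deposited whole-number UMI counts per gene and cell barcode for 1 KO and 1 WT library of CD45+ DAPI- cells, without normalization. Cell Ranger 5.0.0 is named per the file headers, and Cell Ranger, STAR and mm10 per the submitters' processing notes. No gene annotation version for the counts is stated in those sources. Gene positions were looked up by gene ID in the GENCODE annotation of GRCm38 (mm10), and promoters are RefSeq's, with windows for 7 of the 8 genes (not for Serpinb1a).

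Cells with at least 500 genes, 1000 UMIs and at most 10% mitochondrial UMIs were kept and gated on marker UMIs, with at most 1 UMI of other lineages' markers. That limit served against doublets, and no doublet caller was run for the reported values. UMIs were summed per gate and library and scaled to the gate sum (CPM), so that a few very high genes can lower the rest. Ratios carry exact conditional binomial, CPM exact Poisson and shares exact binomial (Clopper-Pearson) 95% intervals, which cover counting error only. A value of 0 allows up to 3 counts. The rule of size was tried on counts simulated with counting error alone, with changes set in well-counted genes of the CD8 T gate. That trial cannot show error from UMIs held by few cells, or recovery of changes at low counts. Gates needed 50 cells in each library, and thinned shares used 1500 UMIs per cell. Python 3.11.15, numpy 2.4.6, scipy 1.17.1, pandas 2.3.3 and, for Scrublet, scanpy 1.11.5 were used.

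The members, the gates and the 7 related lists were chosen with earlier results of these data known. All members were named, up to 4 genes past the rule of size per list and gate, and the 3 genes most like each member, of which 1 is not reported here. Alternatives were another scaling, UMI minimum, gate limit, doublet removal, mitochondrial limit, thinning, and leaving out cycling or top cells. Weighting by the WT mix of CD8 states was added after the data were seen. Mature dendritic cells and neutrophils had too few cells to compare, and monocytes and macrophages entered the likeness and 1 comparison only.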

Additional observations from a re-analysis of the deposited data

Results flagged for a closer look

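Serpinb1a moved in opposite directions in different cell gates by the rule of size, and the difference between gates was not tested. Its log2 ratio of KO over WT was 0.63 in CD4 T cells outside the Treg-like gate, 2.28 in Treg-like cells and 1.43 in cDC1. In NK cells it was -0.96 and in cDC2 -0.68. The Treg-like value rests on 48 KO and 5 WT UMIs, in 16 of 189 KO and 4 of 86 WT cells. Without the cell with the most UMIs in each library, it was 2.64 in Treg-like cells, 0.40 in cDC1 and -0.39 in NK cells, so that neither of the last 2 kept 1.5-fold. In CD4 T cells it was 0.54 to 0.77 over the settings at full depth, under 1.5-fold at the lower end, and -0.00 after thinning to 1500 UMIs. In cDC2 it was -0.73 to -0.10 at full depth and -1.4 after thinning to 1500 UMIs. With 1 UMI more per gate 0 lower calls were left, so that the opposite calls depend on the gate limit. In NK cells 31 of 2105 KO and 18 of 1186 WT cells held a UMI of the gene.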

How the results depend on the processing

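No paired analysis was possible because each genotype has 1 library, and no library could be left out. Of 912 log2 ratios of serpins recomputed under the 10 settings that can change a ratio, 845 stayed within the interval of the reported value, 66 left it and 1 reversed, and 27 of the 66 came from thinning. The count of higher pairs of serpin and gate, 20, was 16 to 23 over the settings at full depth and 12 after thinning to 1500 UMIs, where fewer UMIs leave fewer genes measured. The cause of the other shifts was not tested. Thinning gave 2 higher in CD4 T cells, 0 in Treg-like cells, 1 in T cells with neither coreceptor, 2 in NK cells and 0 in cDC1, with 1 pair lower in all and 0 lower in NK cells. It also gave 53 list pairs higher and 16 lower, and Serpinb1a in NK cells reversed to 0.50. Size factors gave 2 higher in CD4 T cells, equal weight per cell 2 in NK cells, and no UMI minimum 2 in cDC2. With 1 UMI more per gate, lower calls were 0 in NK cells, 0 in cDC2 and 0 over all pairs. With 0 UMIs of other lineages, they were 0 in cDC2 and 1 over all pairs. Removing the highest Scrublet scores gave 3 higher in Treg-like and 2 in NK cells. Without the top cell, 2 were higher in Treg-like and 2 in NK cells, 0 lower in NK cells and 1 lower in pDC. In B cells 2 were higher and 0 lower under every full-depth alternative run, and in CD8 T cells 4 to 7 were higher. Dendritic and Treg-like gates, with few cells, limit what can be seen at this depth.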
